A study of Mus musculus with 6 samples.

Results

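The guanylate-binding proteins (GBPs) examined here were the 8 mouse genes Gbp2, Gbp3, Gbp4, Gbp5, Gbp6, Gbp7, Gbp8 and Gbp9, chosen by name as members of 1 gene family out of 32049 target genes in the predicted enhancer-gene maps of oligodendrocyte precursor cells (OPCs). All 8 were listed in at least 1 of the 2 maps, 4 in control cells, 7 in cells given IFN-γ and 3 in both. Gbp5, Gbp7, Gbp3 and Gbp2 lie in this order on the plus strand of chromosome 3, and Gbp8, Gbp9, Gbp4 and Gbp6 lie on the minus strand of chromosome 5 (mm10, also called GRCm38). The cells were primary OPCs cultured from brains of mice of genotype Sox10-Cre/RCE, labelled as strain C57BL/6j, in which Cre under Sox10 control turns on a GFP reporter in the oligodendrocyte lineage. Per the study's methods the brains came from pups of postnatal day 4 to 6 of both sexes, brains were pooled, and OPCs were isolated either by sorting Sox10-GFP+ cells or with CD140a microbeads. The methods place the Cre line on C57BL/6j and the reporter line on a C57BL/6xCD1 mixed background. All cells were grown with bFGF and PDGF-AA, Ctr-OPCs stayed in this proliferation medium, and IFN-γ-OPCs received it with 100 ng/mL IFN-γ from 24 h after passaging. The study's methods give 48 h of IFN-γ for chromatin experiments.

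The series holds 6 libraries, 3 per condition, of H3K27ac HiChIP, a method that captures chromatin contacts of regions carrying this histone mark of active enhancers and promoters. The values come from the activity-by-contact (ABC) model, which multiplies the activity of an element (from ATAC-seq and H3K27ac CUT&RUN) by its contact with a gene start (from HiChIP). The ABC score of a pair is this product as a share of the sum over all elements around the gene, and that sum is called the gene total below. Each condition has a single pooled table, so no value has a replicate error, no difference was tested, the depth is unknown, and a difference between the tables cannot be told apart from one between libraries.

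GBPs are large GTPases that interferons induce strongly in many cell types. They assemble on the membranes of vacuoles that hold pathogens and on cytosolic bacteria, and several of them promote inflammasome activation. IFN-γ acts through its receptor and JAK kinases, and gamma-activated sites (GAS) and interferon-stimulated response elements (ISRE), the latter bound by IRF1, are known motifs of interferon-induced promoters. GBP genes are textbook IFN-γ targets, and the comparison asks how the elements and contacts around them differ with IFN-γ in cells of the oligodendrocyte lineage.

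The sequences at the starts of the chromosome 3 members are shown first, because an ISRE match stands close to each of these starts and GAS matches to those of Gbp5 and Gbp7. Promoter windows from RefSeq (GRCm38.p6, 250 bases before to 50 after a start) matched 4 of the 8 members, namely Gbp5, Gbp7, Gbp3 and Gbp2, and Gbp4, Gbp6, Gbp8 and Gbp9 are named only. GAS was searched as TTCNNNGAA, which reads the same on both strands, and ISRE as GAAANNGAAA or, on the other strand, TTTCNNTTTC, with overlapping matches counted. Capitals mark the matches in each plus-strand stretch, which ends before the start of a coding transcript except for Gbp2, where 30 bases around the match are given. The Gbp5 stretch lies inside the annotated gene, downstream of the processed transcript's start that the model used.
Gbp5, chr3:142496700-142496899: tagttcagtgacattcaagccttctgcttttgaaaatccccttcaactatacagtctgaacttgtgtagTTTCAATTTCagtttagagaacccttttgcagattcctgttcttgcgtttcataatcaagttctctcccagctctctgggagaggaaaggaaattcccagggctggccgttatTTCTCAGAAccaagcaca
Gbp7, chr3:142530136-142530335: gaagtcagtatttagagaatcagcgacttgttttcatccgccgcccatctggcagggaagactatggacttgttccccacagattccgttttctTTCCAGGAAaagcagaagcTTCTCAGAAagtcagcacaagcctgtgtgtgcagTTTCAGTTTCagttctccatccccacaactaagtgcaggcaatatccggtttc
Gbp3, chr3:142559826-142560025: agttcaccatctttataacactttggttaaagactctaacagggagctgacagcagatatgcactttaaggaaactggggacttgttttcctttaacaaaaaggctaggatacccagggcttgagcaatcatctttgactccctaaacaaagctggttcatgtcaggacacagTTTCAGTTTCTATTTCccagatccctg
Gbp2, chr3:142620594-142620623: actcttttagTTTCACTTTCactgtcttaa

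Each of these 4 promoters held an ISRE match, against 3.44% of the 32851 RefSeq promoter windows. The ISRE match began 165 bases before the RefSeq start in Gbp5, 53 in Gbp7, 59 in Gbp2, and 45 and 39 in Gbp3, where the pair overlaps. The Gbp2 match lies just after the GENCODE start that the model used. Gbp5 held 2 GAS matches, 245 bases (outside the stretch shown) and 52 bases before its start, and Gbp7 held 2, 106 and 87 bases before. GAS matches stood in 8.30% of all promoter windows, and both motifs together in 0.454%. A second RefSeq start of Gbp3 had no match of either kind. A match is a run of letters and says nothing on whether a factor bound there.

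Among the elements paired with members, 2 windows of 300 bases are shown, all on the plus strand. The first is the element with the highest activity of any member element, upstream of Gbp4, Gbp8 and Gbp9 in IFN-γ-OPCs. The second is the intronic element of Gbp5 that Gbp7 shared in IFN-γ-OPCs.
Gbp4, Gbp8 and Gbp9, IFN-γ-OPCs, chr5:105145678-105145977: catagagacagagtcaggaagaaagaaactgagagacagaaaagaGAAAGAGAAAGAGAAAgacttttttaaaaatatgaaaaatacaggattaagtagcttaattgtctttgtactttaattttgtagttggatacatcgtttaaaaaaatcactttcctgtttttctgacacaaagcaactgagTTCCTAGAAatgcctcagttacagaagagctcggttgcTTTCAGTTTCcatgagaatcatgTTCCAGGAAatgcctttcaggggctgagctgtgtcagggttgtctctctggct
Gbp5 and Gbp7, IFN-γ-OPCs, chr3:142499047-142499346: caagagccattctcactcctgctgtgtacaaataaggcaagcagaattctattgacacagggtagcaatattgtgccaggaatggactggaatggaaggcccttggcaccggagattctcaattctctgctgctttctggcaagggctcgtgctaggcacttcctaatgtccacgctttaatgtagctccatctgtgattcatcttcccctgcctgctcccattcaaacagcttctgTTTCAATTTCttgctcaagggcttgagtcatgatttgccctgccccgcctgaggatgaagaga

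The first of these windows held 2 GAS and 3 ISRE matches, of which 2 ISRE matches overlap within a repeat of GAAA units. A single ISRE match each stood in the shared Gbp5 and Gbp7 element, in a Gbp7 element at chr3:142541162-142541661 and in a Gbp3 element at chr3:142569036-142570363. Over the central 500 bases of all elements, ISRE matches stood in 5.41% of elements of the control table and 8.60% with IFN-γ, and GAS matches in 13.9% and 15.2%. None of the 5 member elements listed in Ctr-OPCs held an ISRE match, and 4 of the 12 listed in IFN-γ-OPCs did. GAS matches stood in 1 of the 5 and 1 of the 12 over the same central 500 bases.

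The tables were read first for what they hold. The Ctr-OPC table had 66637 pairs, 25779 target genes and 33083 elements, and the IFN-γ-OPC table had 71478 pairs, 26591 target genes and 35906 elements. They list pairs with a score of at least 0.02, no pair of a gene with its own promoter, and only genes whose promoter activity quantile reached 0.4 (the rank of a gene's promoter activity among all genes, from 0 to 1). A gene missing from a table may have fallen short of 1 of these limits there and need not be inactive. All 7 OPC markers (Pdgfra, Cspg4, Sox10, Olig1, Olig2, Ptprz1 and Gpr17) were listed in both tables, with log2 differences in gene total from -0.24 to 0.35. Of 9 microglia and macrophage markers, 3 were listed in both tables (log2 differences from -0.12 to 0.51), 2 with IFN-γ only (Aif1 and Tmem119) and 4 in neither (Itgam, C1qa, Ptprc and Trem2). Of 5 astrocyte markers 4 were listed in both and of 4 endothelial markers 1 in both and 2 with IFN-γ only. The part of these other cell types in the values below was not tested.

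The family had more listed pairs in IFN-γ-OPCs, with 23 element-gene pairs on 12 elements against 5 pairs on 5 elements in Ctr-OPCs. Of the 23 pairs, 15 are 5 elements counted for Gbp4, Gbp8 and Gbp9, whose starts in the model lie within 47 bp of each other. With these genes counted once there were 13 pairs. Gbp2, Gbp4, Gbp8 and Gbp9 were listed with IFN-γ only, 4 of 8 members, where 19.6% of all genes listed in either table were. Counted by starts, this was 2 of 6. Gbp6 was listed in Ctr-OPCs only, 1 of 8 members, against 17.0% of all genes. Gbp5, Gbp7 and Gbp3 were listed in both. These are bulk chromatin values, in which more cells with an active element and more signal per cell cannot be told apart. Both clusters had more pairs with IFN-γ, going from 3 to 8 on chromosome 3 and from 2 to 15 on chromosome 5.

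**Figure D1:**
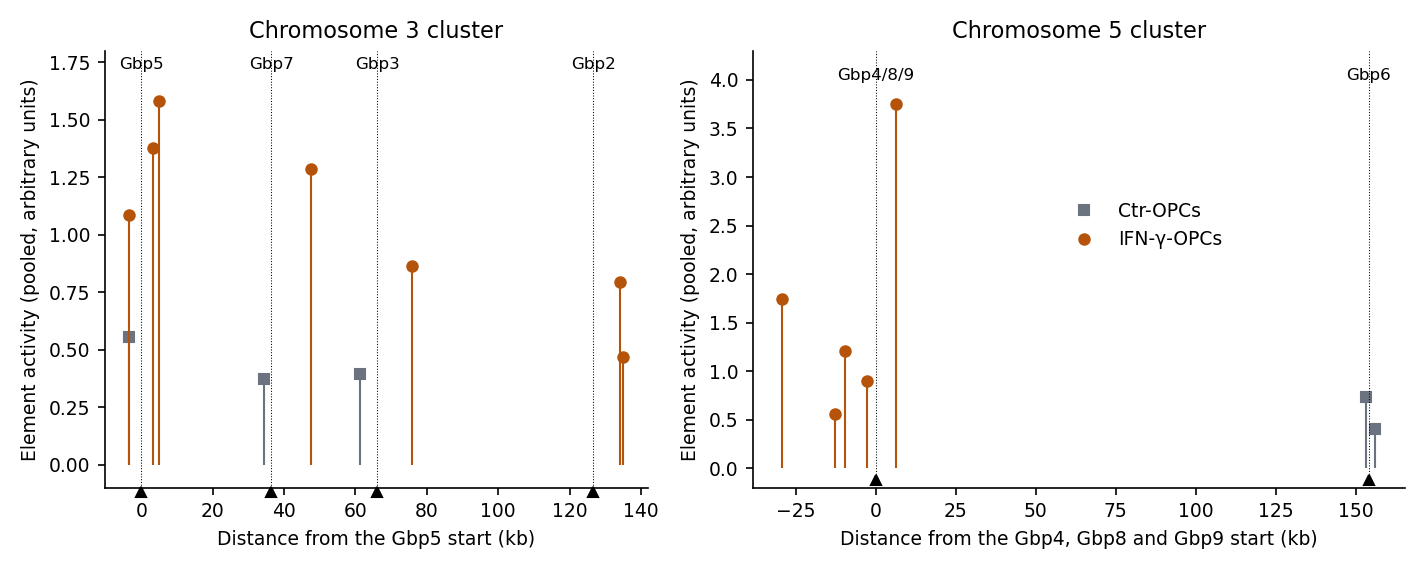
Activity of each element paired with a Gbp member (vertical axis, arbitrary units of the pooled tables) against its distance from a reference start in kb, for the chromosome 3 cluster (left) and the chromosome 5 cluster (right), with squares for Ctr-OPCs, circles for IFN-γ-OPCs, and triangles and dotted lines for the gene starts used by the model. Member elements in Ctr-OPCs lay between 0.372 and 0.740 and those in IFN-γ-OPCs between 0.470 and 3.75.

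At the cut-off of the study's methods, a score above 0.05, the family had 1 connection in the control table and 3 with IFN-γ. All 3 connections with IFN-γ joined the same intergenic element, chr5:105145435-105146135, with Gbp4, Gbp8 and Gbp9 at a score of 0.105 each. The model placed the starts of these 3 genes within 47 bp of each other, so they amount to 1 start counted 3 times. Counted once, the family had 1 connection in each table. The connection in Ctr-OPCs was that of Gbp6 with an intronic element at chr5:105292570-105293069, with a score of 0.0741. Among the 4 members with any connection, 3 had more with IFN-γ, where 37.4% of the 12779 genes with a connection in either table did, and 1 had fewer, where 32.5% did. The chromosome 3 cluster had 0 connections in both tables, and its highest scores were 0.0330 (Ctr-OPCs) and 0.0468 (IFN-γ-OPCs). A further chromosome 5 element, chr5:105129155-105130805 in introns of Gbp4, Gbp8 and Gbp9, had a score of 0.0499, just under the cut-off.

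The gene total was higher with IFN-γ for every member listed in both tables. For Gbp5, which has been tied to inflammasome activation, it was 0.553 in Ctr-OPCs and with IFN-γ 0.948, a 1.71-fold difference. For Gbp7, tied to the assembly of NADPH oxidase on phagosomes, it was 0.517 and 0.951, a 1.84-fold difference. The total of Gbp3 was 0.639 and 1.20, 1.88-fold higher with IFN-γ. All 3 members listed in both tables were at least 1.5-fold higher, where 0.615% of the 20321 genes listed in both tables were, and 0 were at least 1.5-fold lower, where 0.118% were. None reached 2-fold, which 11 of all genes did. On the log2 scale the differences were 0.78 for Gbp5, 0.88 for Gbp7 and 0.91 for Gbp3, beside a median of -0.07 and an SD of 0.19 over all genes, and Gbp3 ranked 21st, Gbp7 24th and Gbp5 39th among them.

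These ratios also carried the members from the lower to the upper part of the range of totals. Median totals over all listed genes were 0.827 without and 0.799 with IFN-γ. In Ctr-OPCs the totals of Gbp5, Gbp7 and Gbp3 exceeded those of 29.0%, 26.1% and 36.2% of listed genes. In IFN-γ-OPCs they exceeded those of 61.5%, 61.7% and 77.6%. Gbp2, which targets vacuoles of intracellular parasites and is listed with IFN-γ only, had a total of 1.05, higher than in 67.8% of genes. The starts of the chromosome 3 members lie close together and their totals sum over many of the same elements, so these values are not independent of each other.

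**Figure D2:**
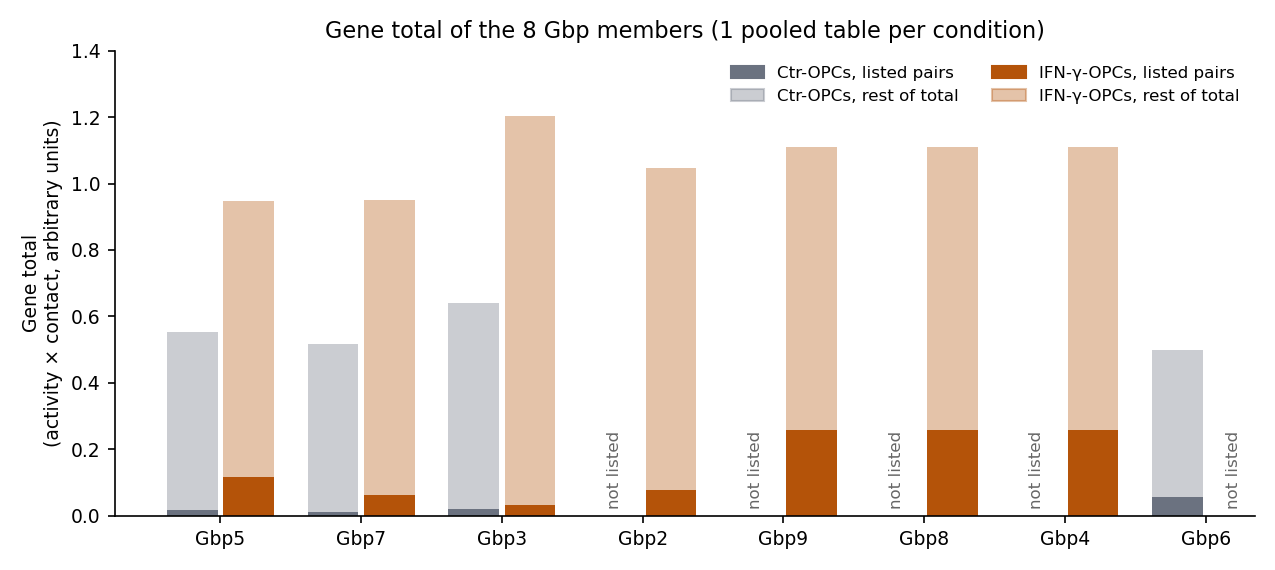
Gene total of each member (vertical axis, activity times contact in arbitrary units) in Ctr-OPCs (grey) and IFN-γ-OPCs (brown), split into the pairs that the tables list (dark) and the rest of the total (light). Every member listed in IFN-γ-OPCs had a total between 0.948 and 1.20, and the 4 listed in Ctr-OPCs lay between 0.499 and 0.639.

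**Figure D3:**
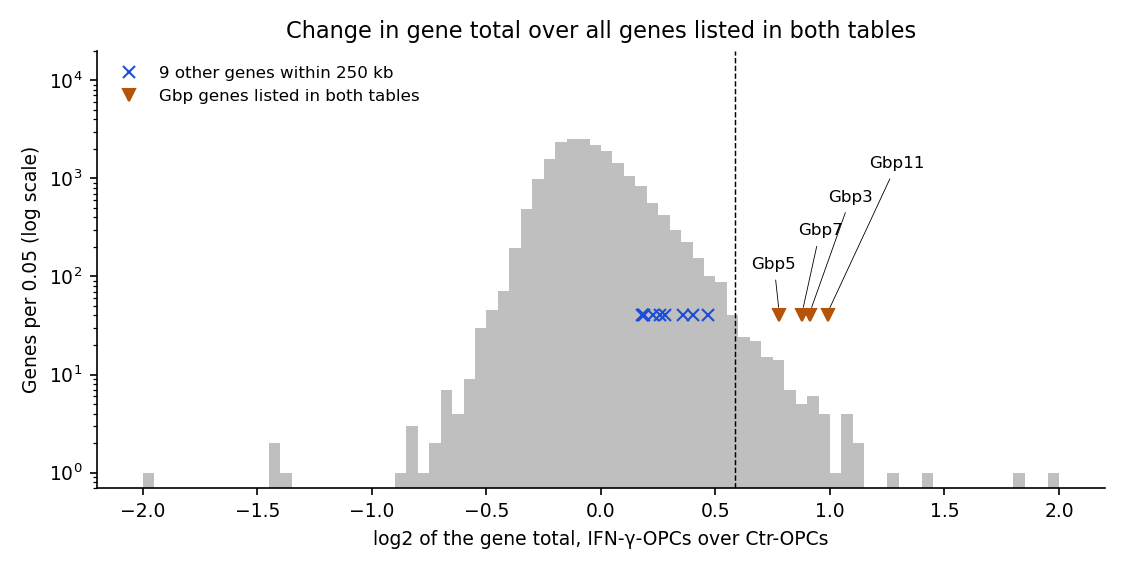
Distribution of the log2 gene total of IFN-γ-OPCs over Ctr-OPCs for the 20321 genes listed in both tables (counts per 0.05 on a log axis, values beyond 2 in either direction drawn at the edge), with the Gbp genes as triangles, 9 other genes within 250 kb of a member start as crosses (marker height has no meaning) and a dashed line at 1.5-fold. The Gbp genes lie from 0.78 to 0.99 and the 9 neighbours from 0.18 to 0.47.

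Only a small part of each total sat in listed pairs, and most of the difference lay outside them. The listed pairs of Gbp5 held 3.06% of its total without and 12.2% with IFN-γ. For Gbp7 the shares were 2.10% and 6.48%, and for Gbp3 3.30% and 2.68%. Listed pairs accounted for 24.9% of the gain in total of Gbp5, 11.7% of that of Gbp7 and 1.98% of that of Gbp3. The unlisted remainder joins the own promoter with every other element that was not listed, and it cannot be divided further. All listed member elements were classed as genic or intergenic, so promoters of other genes may be part of the remainder at any score. The remainder was 1.55-fold higher for Gbp5, 1.76-fold for Gbp7 and 1.90-fold for Gbp3.

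The promoters themselves ranked higher in IFN-γ-OPCs. Gbp5 had a promoter activity quantile of 0.576 without and 0.774 with IFN-γ. It was 0.808 and 0.991 for Gbp7, and 0.811 and 0.991 for Gbp3. All 3 were higher by at least 0.1, where 8.79% of genes were. With IFN-γ, Gbp2 stood at 0.929, Gbp4 at 0.919, and Gbp8 and Gbp9 at 0.911. Gbp6 stood at 0.697 in Ctr-OPCs. For Gbp5 the quantile belongs to the start of a processed transcript that the model used, and an element at the start of its coding transcript is described next.

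**Figure D4:**
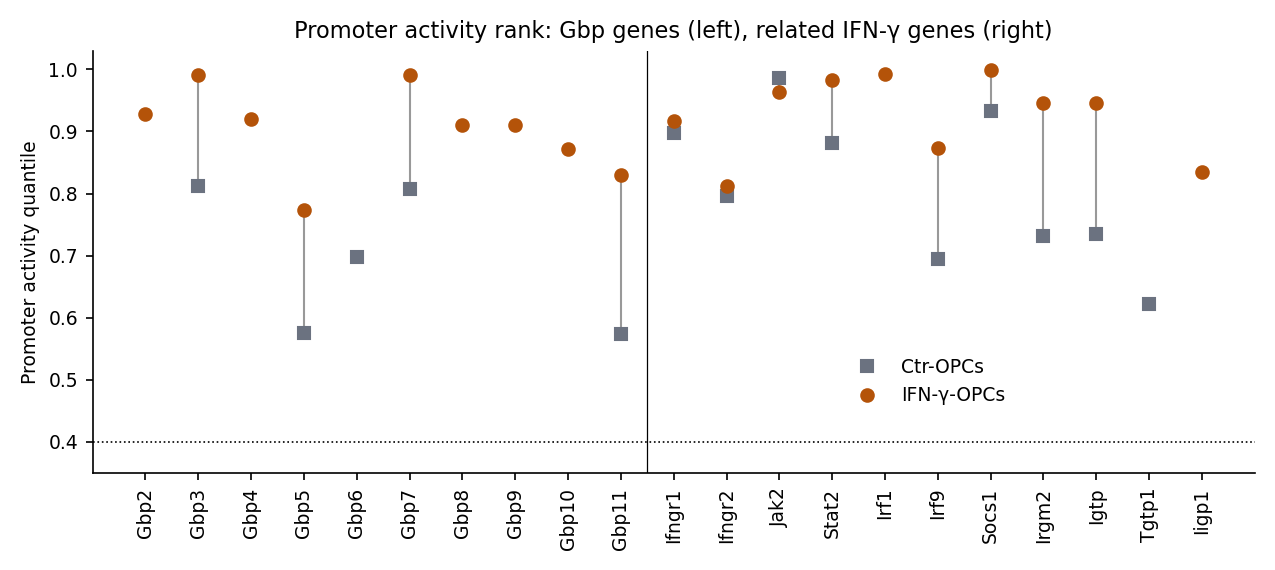
Promoter activity quantile (vertical axis, 0 to 1, dotted line at the listing limit of 0.4) in Ctr-OPCs (squares) and IFN-γ-OPCs (circles) for Gbp genes (left of the line) and for IFN-γ signalling genes and immunity-related GTPases (right), with a line joining genes listed in both tables and a missing symbol where a gene was not listed. Gbp5, Gbp7, Gbp3 and Gbp11 were all higher with IFN-γ, by 0.179 to 0.255.

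Gbp5 was the member whose surroundings could be followed best, since 1 of its elements was listed in both tables. This intergenic element, chr3:142490414-142490913, 3.3 kb upstream of the start used, had an activity of 0.554 without and 1.09 with IFN-γ, 1.96-fold higher. It was the only member element matched between the tables, and 9.37% of the 19332 matched elements of all genes were at least 1.5-fold higher. Its contact with Gbp5 was 0.0306 and 0.0297, a log2 difference of -0.04 beside a median of 0.05 and an SD of 0.50 over 29858 matched pairs. The score was 0.0306 and 0.0341, so with a higher activity, a like contact and a higher total the share of this element in the total hardly differed. Its activity exceeded that of 22.8% of elements in the control table and 66.5% with IFN-γ.

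Gbp5 had 2 more elements in IFN-γ-OPCs. The first, chr3:142496902-142497401, overlaps an exon at the start of the Gbp5 coding transcript, 3.2 kb from the start that the model used, with an activity of 1.38 and a score of 0.0407. It can thus be called a promoter of Gbp5 by annotation although the model paired it as an element. The second, the intronic element at chr3:142498847-142499346 whose sequence holds an ISRE match, had an activity of 1.58, the highest of the chromosome 3 member elements and above that of 81.8% of all elements in IFN-γ-OPCs, and a score of 0.0468. A pair left out only for its score has a product of activity and contact under 0.02 of the total, which was 0.0111 for Gbp5 in Ctr-OPCs. Whether these 2 elements were scored at all in Ctr-OPCs is not known. If they were, and missed only the score limit, their products of 0.0386 and 0.0443 with IFN-γ were at least 3.49-fold and 4.01-fold higher.

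The same intronic element of Gbp5 was paired with Gbp7, whose start lies 31 kb away, at a score of 0.0216. Gbp7 also had an element overlapping its own exon at chr3:142541162-142541661, with an activity of 1.29 and a score of 0.0431. By the same reasoning, the products of these pairs were at least 1.99-fold and 3.97-fold higher than in Ctr-OPCs, if the elements were scored there. Conversely, the intergenic element of Gbp7 in Ctr-OPCs, chr3:142528033-142528532, had an activity of 0.372 and a product of 0.0108, which is under the limit of 0.0190 in IFN-γ-OPCs. Its absence there thus does not show a loss.

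Gbp3 and Gbp2 had elements of low to moderate activity, above that of 8.09% to 54.0% of all elements in the same condition. The Gbp3 element in Ctr-OPCs, chr3:142555023-142555774, had an activity of 0.395, a score of 0.0330 and a product of 0.0211, again under the limit in IFN-γ-OPCs of 0.0241. The Gbp3 element with IFN-γ, chr3:142569036-142570363, overlaps a Gbp3 exon and had an activity of 0.862 and a score of 0.0268. Its product was at least 2.53-fold higher than in Ctr-OPCs, if the element was scored there. Gbp2 had 2 neighbouring intronic elements in IFN-γ-OPCs, chr3:142627699-142628660 and chr3:142628737-142629236. Their activities were 0.796 and 0.470 and their scores 0.0459 and 0.0271. Since Gbp2 has no total in Ctr-OPCs, no bound can be given for it, and none for Gbp4, Gbp8 and Gbp9.

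On chromosome 5, Gbp4, Gbp8 and Gbp9 had the same 5 elements in IFN-γ-OPCs, because their starts in the model nearly coincide. Their gene total was 1.11 each, higher than in 72.1% of listed genes, and the 5 elements held 23.3% of it. The upstream element chr5:105145435-105146135, 6.2 kb from these starts, had an activity of 3.75, higher than 98.2% of elements in IFN-γ-OPCs, and a product of 0.117. It is the sequence shown above with 2 GAS and 3 ISRE matches. The intronic element with the score of 0.0499 had an activity of 1.21. The other 3 elements had activities of 0.559, 0.899 and 1.74 and scores between 0.0231 and 0.0311.

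The element with the activity of 1.74, chr5:105110143-105110642, lies 29 kb from the start used for Gbp9 but overlaps the starts of other Gbp9 transcripts. GENCODE gives 4 starts for Gbp9, 4 for Gbp8 and 5 for Gbp4, and the model uses 1 per gene. It can therefore be called a promoter of Gbp9 by annotation, as with Gbp5.

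The chromosome 5 genes arose by duplication, and near-identical copies limit what can be said of single elements there. Of the 5 elements of Gbp4, Gbp8 and Gbp9, 4 had at least 1 other stretch of 100 bp or more at 90% identity or more in the 2 loci. The most active element had 4 such copies, the best 93.5% identical over 632 bp. The element over other Gbp9 starts had 2, the best 95.1% identical over 509 bp, at chr5:105139411-105139917, which covers the start of Gbp4. None of the 9 elements of the chromosome 3 cluster had such a copy. Per the study's methods, reads that fit several places were discarded from the ATAC-seq data behind activity, while their handling in the CUT&RUN and HiChIP data is not given in the sources used here. The effect of the copies on the values of these 4 elements, and of a Gbp6 element with 1 copy, was not tested.

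Gbp6 stood apart from the other members, being listed in Ctr-OPCs only. Its total was 0.499 and its 2 elements held 11.5% of it, with activities of 0.740 and 0.404 and scores of 0.0741 and 0.0405. The element of 0.740 lies in an intron 0.88 kb from the start used, which belongs to a retained-intron transcript, and the element of 0.404 is intergenic. The latter has a copy of 162 bp at 90.7% identity in the locus. With an unchanged product of 0.0370, the first pair would have dropped under a score of 0.02 only at a total above 1.85, while the highest total of any member in IFN-γ-OPCs was 1.20. Whether Gbp6 missed a listing limit in IFN-γ-OPCs, and which, is not known.

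Set side by side, the clusters differed in the number of starts and in how concentrated their input was, and less in the level of their totals. With IFN-γ, chromosome 3 had 8 pairs on 7 elements for 4 starts, with 1 element shared, and chromosome 5 had 15 pairs on 5 elements for a single start, with all 5 shared. Median element activities on chromosome 3 were 0.395 without and 1.09 with IFN-γ, and on chromosome 5 they were 0.572 and 1.21. Apart from the matched Gbp5 element on chromosome 3, whose activity is itself the 1.09, these medians are over different elements in the 2 conditions. Highest activities with IFN-γ were 1.58 and 3.75. Totals with IFN-γ ran from 0.948 to 1.20 on chromosome 3, and the chromosome 5 total of 1.11 lay inside this range. The share of the total in listed pairs ran from 2.68% to 12.2% on chromosome 3 against 23.3% on chromosome 5. As the members of a cluster share elements and starts, no test of these differences was made.

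Elements were also counted, whatever their target, over the whole span of each cluster's member genes and 10 kb to each side. These spans of 164 kb on chromosome 3 and 300 kb on chromosome 5 include the gaps between members, with Gbp2b and Gbp10. There were 3 elements without and 8 with IFN-γ on chromosome 3, and 2 and 9 on chromosome 5. Their mean activity was 0.440 and 0.990 on chromosome 3 and 0.572 and 1.41 on chromosome 5. Over all elements of the tables the mean was 1.16 and 1.08, above both loci in Ctr-OPCs and between them with IFN-γ. The median activity with IFN-γ was 0.975 on chromosome 3 and 1.21 on chromosome 5, both above the 0.803 of all elements.

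Contacts of member pairs lay on both sides of the general median in each table. Pairs of members within 10 kb had contacts from 0.0291 to 0.0534 in Ctr-OPCs, where the median of all such pairs was 0.0440, and from 0.0280 to 0.0603 in IFN-γ-OPCs, where it was 0.0456. The medians of the members were 0.0499 over 5 pairs and 0.0384 over 15 pairs. Contact was set for bins of 5 kb, so these pairs rest on 4 and 7 values. At 10 to 35 kb, member contacts in IFN-γ-OPCs ran from 0.0130 to 0.0459 beside a median of 0.0185 over all pairs. The highest of these, 0.0459, joined the start of Gbp4, Gbp8 and Gbp9 with their intronic element at 12.9 kb.

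Other genes of the family were then examined. Gbp2b, which lies between Gbp3 and Gbp2, was in neither table, although its promoter window held an ISRE match 137 bases before the start. Gbp10 was listed with IFN-γ only, with a total of 0.777 and a promoter quantile of 0.871. Gbp11, annotated as a polymorphic pseudogene, had totals of 0.447 without and 0.889 with IFN-γ, a log2 difference of 0.99, the 12th highest of all genes. Its promoter quantile was 0.574 and 0.829, and its connections numbered 0 and 1. Both shared the most active chromosome 5 element with Gbp4, Gbp8 and Gbp9, Gbp10 over 94 kb at a score of 0.0308 and Gbp11 over 201 kb at 0.0209. Gbp10 was also paired with an exonic element of Gbp4 at 103 kb, where its contact was 4.32 times that given by the power law of distance. The best copy of this element, 92.2% identical over 503 bp, lies 3509 bp from the Gbp10 start, and its part in this contact was not tested.

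Genes outside the family that shared most elements with members were the pseudogenes Gm19166 and Gm43802, the coding gene Gm43302 and the miRNA gene Mir6381, with 2 elements each over both tables. Gm43302 shared both Ctr-OPC elements of Gbp6, and its start lies within 3 bp of that of Gbp6. Mir6381 shared both Gbp2 elements. Gm43802, at 6.5 kb from the exonic element of Gbp7, had a score of 0.0790 for it, so this element exceeded the cut-off for the pseudogene but not for Gbp7. A gene without a symbol in GENCODE M21, ENSMUSG00000118625, shared 1 element.

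Neighbours outside the family showed the same direction at a smaller size. The 9 genes within 250 kb of a member start and listed in both tables had log2 differences in total from 0.18 to 0.47, with a median of 0.26, all above the median of -0.07 over all genes, and 0 of 9 were at least 1.5-fold higher. Kyat3, 80 kb from the nearest member start on chromosome 3, had totals of 0.733 and 0.831, and Lrrc8b, 122 kb away on chromosome 5, 0.693 and 0.914. Their totals include elements of the Gbp loci, so they are not independent of those of the members.

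The IFN-γ pathway around the family was read from gene lists. Of 9 signalling genes, 6 were listed in both tables with a median log2 difference in total of 0.13 and 0 were at least 1.5-fold higher. Ifngr2, a subunit of the IFN-γ receptor, was lowest at -0.08, and Socs1, the feedback inhibitor of JAK kinases, was highest at 0.46. Irf1, which encodes a factor that binds ISRE, was listed with IFN-γ only, with a promoter quantile of 0.992. Of the 6 immunity-related GTPases, which act with GBPs on pathogen vacuoles, 2 were listed in both tables, Tgtp1 in Ctr-OPCs only, Iigp1 with IFN-γ only and 2 in neither. Those in both were Irgm2 and Igtp, whose starts the model placed side by side and whose totals were identical, 1.06 without and 1.66 with IFN-γ, a log2 difference of 0.65. They share their elements, so this is 1 value and not 2, and connections went from 0 to 2 for each. Of 6 inflammasome and cell death genes, 4 were listed in both with a median of -0.08. Casp1, the inflammasome protease, was highest at 0.72 with totals of 0.0814 and 0.134, and Gsdmd, the pore-forming substrate of inflammatory caspases, was lowest at -0.20. On this scale Gbp5, Gbp7 and Gbp3 were higher than every gene of the 3 lists that was listed in both tables.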

How the data were processed

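H3K27ac HiChIP reads of 6 libraries were aligned to mm10 and filtered for duplicates by the authors with HiC-Pro and entered the ABC model with ATAC-seq and H3K27ac CUT&RUN. Both deposited full tables were used, each pooling 3 libraries grouped by title. Element activity was deposited as a signal, with its scaling between conditions not given in the sources used here, the ABC score as a fraction, and contact (with a pseudocount), the power-law score and the product of activity and contact as score values. Promoter quantiles are ranks. The short tables held the same scores. Gene totals were recovered as product over score, and elements were matched by mutual best overlap of at least 1 bp. Transcripts came from GENCODE M21, sequences from RefSeq GRCm38.p6, and positions are 1-based. Copies were searched with BLAST 2.17.0 within 300 kb of the member starts. Python 3.11.15, pandas 2.3.3, NumPy 2.4.6 and matplotlib 3.10.9 were used. A gene of the signalling list and an element sequence are not reported here. Procedures were tested on copies of the control data with known changes put in. Members and lists were chosen with earlier results of these data known. Genes named were the members, Gbp2b, Gbp10, Gbp11, up to 5 genes sharing most elements, cell type markers and at most 4 per IFN-γ pathway list. Kyat3 and Lrrc8b were chosen after their values were seen. Alternatives concerned the score cut-off, the power law, the overlap, the fold and the scaling.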

Additional observations from a re-analysis of the deposited data

How the results depend on the processing

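The difference in family connections of 2 became 18 over every deposited pair and 5 with the power-law score. With Gbp4, Gbp8 and Gbp9 as 1 start (chosen after seeing the data) it became 0, and 8 over every deposited pair. For chromosome 3 the difference of 0 became 5 and 1, and for chromosome 5 that of 2 became 13 and 4, over every pair and with the power law. No member total was 2-fold higher, giving 0 instead of 3. The activity difference of the matched Gbp5 element was 1.08 on the log2 scale after division by the table's median, against 0.97. The median gain in summed score of 0.0438 was 0 over pairs above 0.05 and 0.0201 with the power law, and the median log2 listed input of 2.51 became 1.37 with the power law. The median log2 total of 0.88 lay between 0.90 and 0.95 under its alternatives. The remaining alternatives moved a value by at most 10% or a count by at most 1.5 times. No member connection was matched between the tables, so activity and contact had no value over connections only. No replicate could be left out, and the conditions could not be paired. No paired analysis was possible because a pooled table carries no replicate numbers. Depth is unknown.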
